A study of Bos taurus with 40 samples.

Results

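CAPN1 (ENSBTAG00000010230) and CAST (ENSBTAG00000000874) were followed in the muscle of Holstein-Friesian bulls, which are dairy cattle, while feed was held back and after it was given freely again. They were 2 of the 24616 genes in the authors' count files and were picked by identifier, as the protease and the inhibitor of one system. The files list identifiers alone. Both symbols come with the definition of the pair, and the sources used here did not allow other identifiers to be named or the labelled tissue to be checked against its marker genes.

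Calpains are calcium-dependent cysteine proteases of the cytosol that make limited cuts in their targets, among them desmin and other proteins of the muscle cytoskeleton. CAPN1 encodes the large catalytic subunit of mu-calpain. CAST encodes calpastatin, the endogenous inhibitor that binds mu-calpain and m-calpain. In cattle, both are known for their part in muscle protein turnover and in the softening of meat after slaughter. The balance of protease to inhibitor is the usual way to look at the system, so the ratio of CAPN1 to CAST counts was examined next to each gene.

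The libraries came from 20 bulls on 1 diet of 70% concentrate and 30% grass silage. For 10 of them feed was limited over 125 days (period 1) to allow a gain of 0.6 kg a day, after which it was unlimited over 55 days (period 2). The other 10, the control bulls, ate without limit in both periods. The growth protocol in the labels gives 10 bulls per feeding group and the treatment protocol 20. The library titles number 10 in each. Muscle was sampled on day 15 of period 2 and on day 120 of period 1, which gave 4 groups of 10 libraries: refed bulls (previously restricted) and control bulls at day 15 of period 2, and restricted bulls and control bulls at day 120 of period 1. The labels name no particular muscle and give no age. Libraries with the same number in a feeding group were read as 1 bull sampled at both times, which the labels do not state outright. The second number of the library codes differed by the same step in every such pair.

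Reads counted in genes ran between 20758572 and 32968625 per library. CAPN1 had 1414 to 2635 reads and CAST 1549 to 5941 reads in each library, so that counting error was at most 2.66% of a CAPN1 value and 2.54% of a CAST value. Values are given as reads per 1000000 gene reads (CPM). Counts were summed over each gene, so the isoforms of CAST were not told apart, and in whole biopsies fewer cells of a type and less RNA per cell cannot be told apart either. The count ratio carries the lengths of both transcripts. It was therefore compared between libraries only and does not say which transcript had more molecules.

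A set of 7 libraries stood apart in both genes. By the first number of their library codes, all 4 libraries of number 6 and 3 of the 4 of number 5 are in it, and none of the other numbers; the labels do not say what this number stands for. In these 7, between 10.0% and 11.2% of reads lay outside annotated genes, out of all reads in genes, outside them or ambiguous; in the other 33 libraries the share was 13.3% to 18.7%. The CAPN1 to CAST ratio was 0.999 to 1.26 in the 7 libraries and 0.311 to 0.866 in the other 33, with no overlap. CAPN1 was at 74.6 to 95.5 CPM in the 7 libraries and at 54.9 to 82.5 CPM in the others. CAST was at 65.3 to 81.3 CPM in the 7 libraries, near the bottom of the 73.8 to 224.6 CPM of the others. In a fit with 4 group means and a term for these libraries, CAPN1 was higher by 0.45 ± 0.07 log2 units (SE) and CAST lower, at -0.58 ± 0.10, in the 7 libraries. The set had been noticed in the expression values of the same libraries, so these differences are descriptions, and 62.5% of the 12753 genes tested were past the same threshold for that term. The set held 1 of 10 libraries of refed bulls and 3 of 10 of control bulls in period 2, and 2 of 10 of restricted bulls and 1 of 10 of control bulls in period 1. The tests of each gene are therefore given with all 40 libraries and with the other 33. Leaving out the set removes the 7 highest ratios of the study. Differences of the ratio between groups were therefore tested with all 40, and those among the 33 are given as descriptions, not as calls. Relations of the ratio over bulls and within groups were tested outside the set, and those tests have the same limit. The set also holds most of the lowest CAST values, and the CAST tests among the 33 have the same limit. Within the set CAST was at 65.3 CPM in the refed bull and 71.8 to 81.3 CPM in 3 control bulls of period 2, and at 74.6 and 77.8 CPM in 2 restricted bulls and 75.9 CPM in the control bull of period 1. The refed library of the set was thus below its 2 restricted ones.

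**Figure D1:**
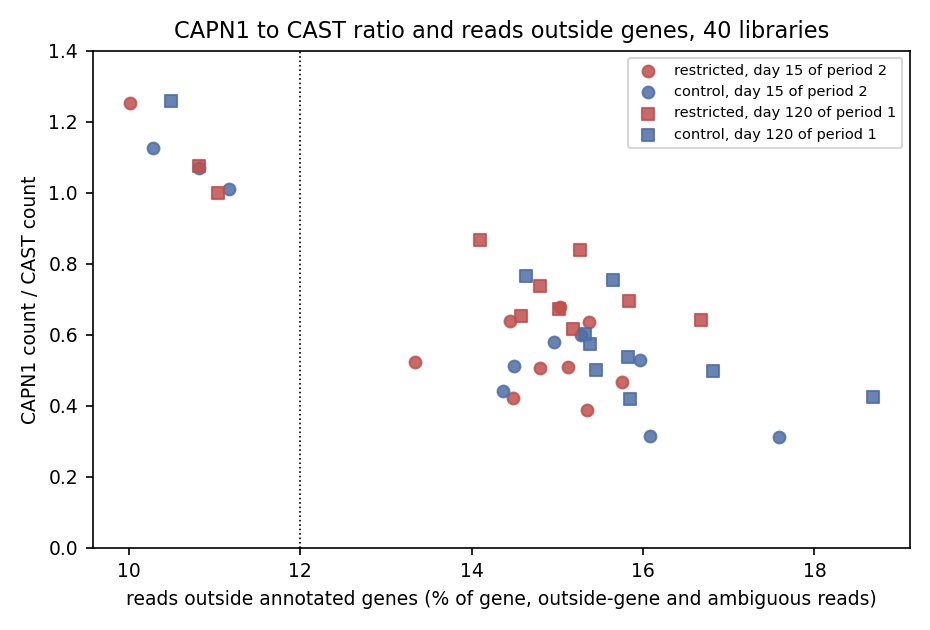
The CAPN1 to CAST count ratio (vertical axis) is plotted against the percentage of reads outside annotated genes (horizontal axis) for each of the 40 libraries. The 7 libraries left of the dotted line at 12% have ratios of 0.999 to 1.26, above all 33 libraries to its right, and come from all 4 groups.

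CAPN1 was the steadier of the genes. Its level was 69.3 ± 8.07 CPM (SD, n = 10) in refed and 72.4 ± 8.36 CPM in control bulls at day 15 of period 2, and 71.0 ± 7.58 CPM in restricted and 68.2 ± 11.6 CPM in control bulls at day 120 of period 1. All 4 means lay within 1 SD of each other. CAST spread more widely, with means of 125.4 ± 32.3 CPM in refed and 130.6 ± 49.4 CPM in control bulls of period 2, and of 93.4 ± 15.5 CPM in restricted and 114.5 ± 21.7 CPM in control bulls of period 1. From high to low the CAST means ran control bulls of period 2, refed bulls, control bulls of period 1 and restricted bulls of period 1. Neighbours in that order differed by less than the larger SD of the pair, and only the last step exceeded the smaller one, the 15.5 CPM of restricted bulls. The biological coefficient of variation from the edgeR fit was 17.8% for CAPN1 and 21.3% for CAST. Genes of like level, within 0.5 log2 CPM of each, had medians of 18.1% and 18.7%.

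**Figure D2:**
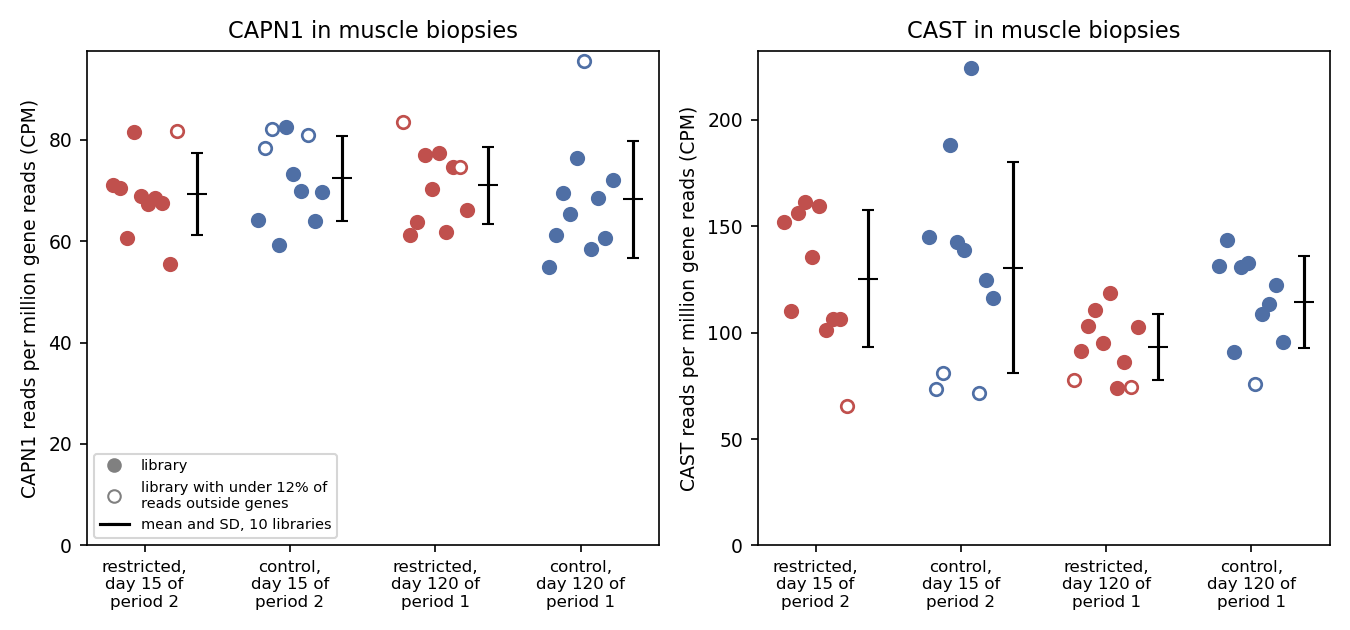
CAPN1 (left) and CAST (right) in reads per 1000000 gene reads, 1 point per library in the 4 groups of 10. Open points are the libraries with under 12% of reads outside genes, and bars show the mean and SD. CAPN1 means sit between 68.2 and 72.4 CPM, while CAST means run between 93.4 CPM in restricted bulls and 130.6 CPM in control bulls of period 2.

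The first comparison asked how the pair stood late in the restriction. CAST was at 73.8 to 118.4 CPM (median 93.2) in restricted bulls and at 75.9 to 143.6 CPM (median 117.9) in control bulls. The ranges overlapped, and 5 control bulls were above every restricted bull. CAPN1 was at 61.2 to 83.6 CPM (median 72.4) in restricted bulls and at 54.9 to 95.5 CPM (median 67.0) in control bulls. Here the control group held both the lowest and the highest library. On the log2 scale CAST differed by -0.18 ± 0.14 (SE) (edgeR adjusted p = 0.422, unadjusted p = 0.180) and CAPN1 by 0.15 ± 0.11 (edgeR adjusted p = 0.430, unadjusted p = 0.186). Neither of the 2 genes was called, in a comparison that called 9.79% of the 12753 genes tested by edgeR at an adjusted p under 0.05. DESeq2 gave adjusted p of 0.486 and 0.384, and limma with voom 0.443 and 0.377, for CAST and CAPN1. From the other 33 libraries the changes were -0.15 ± 0.11 (edgeR adjusted p = 0.346) and 0.20 ± 0.09 (edgeR adjusted p = 0.131), where 16.3% of genes were called. Without control bull 6 CAPN1 differed by 0.27 (edgeR adjusted p = 0.1003), and without restricted bull 7 CAST by -0.12 (edgeR adjusted p = 0.640).

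The ratio of protease to inhibitor transcripts was 0.617 to 1.07 (median 0.716) in restricted bulls and 0.418 to 1.26 (median 0.556) in control bulls. All 10 restricted libraries lay above the control median, and the control range reached above them through control bull 6, which is among the 7 libraries. The mean log2 ratio was -0.38 ± 0.28 (SD, n = 10) in restricted and -0.74 ± 0.48 in control bulls, a difference of 0.35 ± 0.18 (SE), or 1.28-fold in the geometric mean. It did not pass a two-sided permutation test (p = 0.0590, adjusted p = 0.147 over the 5 comparisons of the ratio). Among the other 33 libraries the ratio was 0.617 to 0.866 in 8 restricted and 0.418 to 0.765 in 9 control bulls, a difference of 0.36 ± 0.12. Without control bull 6 alone the difference was 0.47 ± 0.14 (exact permutation test, adjusted p = 0.0166), which takes out the highest ratio of its group. With the percentage of reads outside genes as a covariate it was 0.13 ± 0.12, a fit to which no test was applied. The share of reads outside genes had a median of 14.9% in restricted and 15.5% in control libraries.

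**Figure D3:**
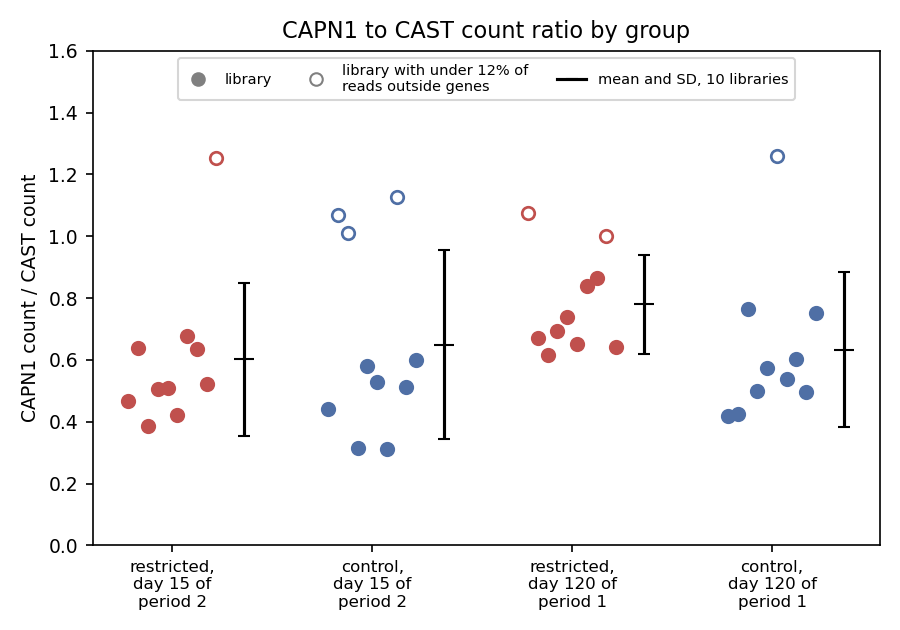
Ratio of CAPN1 to CAST counts for each library in the 4 groups, with the mean and SD of 10 libraries and open points for libraries with under 12% of reads outside genes. The filled points of restricted bulls in period 1 lie between 0.617 and 0.866, above the control median of 0.556, and those of refed bulls lie between 0.387 and 0.678.

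The second comparison asked what separated the animals 15 days into full feeding. CAST was at 65.3 to 161.6 CPM (median 122.9) in refed bulls and at 71.8 to 224.6 CPM (median 131.7) in control bulls, and CAPN1 at 55.6 to 81.8 CPM (median 68.7) in refed and 59.2 to 82.5 CPM (median 71.6) in control bulls. The groups overlapped in both genes, and control bulls 4 and 7 were above every refed bull in CAST CPM. Log2 fold changes were 0.0025 ± 0.14 (SE) for CAST (edgeR adjusted p = 0.994) and -0.06 ± 0.11 for CAPN1 (edgeR adjusted p = 0.793), in a comparison that called 7.2% of genes. The unadjusted p were 0.985 and 0.602. From the other 33 libraries both directions turned, to -0.11 ± 0.11 for CAST (edgeR adjusted p = 0.599) and 0.06 ± 0.09 for CAPN1 (edgeR adjusted p = 0.777), with 6.63% of genes called. The ratio was 0.387 to 1.25 (median 0.516) in refed bulls and 0.311 to 1.13 (median 0.553) in control bulls. Its log2 difference was -0.05 ± 0.26 (SE; permutation test, p = 0.855, adjusted p = 0.918) with all libraries. From the other 33 it was 0.19 ± 0.18, in the opposite direction.

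The third comparison followed the restricted bulls into full feeding, where CAST had its largest change of the 5 comparisons with all 40 libraries. CAST was at 65.3 to 161.6 CPM (median 122.9) in refed bulls at day 15 of period 2 and at 73.8 to 118.4 CPM (median 93.2) in the same bulls restricted at day 120 of period 1. 9 of 10 bulls had more CAST after feeding resumed. The exception, bull 10, was at 65.3 CPM in period 2 and 102.9 CPM in period 1, and its period 2 library is among the 7. CAST was thus 1.26-fold higher in refed bulls, by 0.33 ± 0.14 log2 units (SE), which did not pass the threshold (edgeR adjusted p = 0.0811, unadjusted p = 0.0187). In that comparison 19.2% of genes were called. From the other 33 libraries CAST rose by 0.33 ± 0.11 log2 units, the same 1.26-fold (edgeR adjusted p = 0.0177), with 27.8% of genes called. With a term for the 7 libraries it rose by 0.26 ± 0.10 (edgeR adjusted p = 0.0433, 31.3% of genes called), and with that term and a block for each bull by 0.25 ± 0.06 (edgeR adjusted p = 0.00357, 35.8% called). Leaving out the period 2 library of restricted bull 10 alone gave a rise of 0.38 ± 0.12 (edgeR adjusted p = 0.0269, 19.4% called). This takes out the lowest CAST value of its group. No other single library left out brought CAST past the threshold. With reads outside genes as a covariate the rise was 0.31 ± 0.10 (edgeR adjusted p = 0.0140, 29.2% called). A factor for the code number left it short of the threshold, at 0.31 ± 0.12 (edgeR adjusted p = 0.0510, 26.5% called).

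Within bulls the direction was uniform outside the set, but leaving out the set also leaves out every bull whose CAST fell. These were restricted bull 10 and control bulls 2, 3 and 8, each with its period 2 library in the set. In the 7 restricted bulls with both libraries outside the set of 7, the log2 change of CAST was between 0.28 and 0.60, with a mean of 0.44 ± 0.12 (SD, n = 7 bulls). All 7 rose. CAPN1 changed by -0.0022 ± 0.15 in the same bulls, with 3 up and 4 down. These changes per bull are in log2 CPM without the TMM scaling of the edgeR fits, so they are not on the scale of those fits. With total counts in place of TMM and all 40 libraries, edgeR gave 0.42 for CAST and -0.035 for CAPN1 over time in restricted bulls. In the whole restricted group CAPN1 was at 55.6 to 81.8 CPM in period 2 and 61.2 to 83.6 CPM in period 1, a log2 fold change of -0.12 ± 0.11 (SE; edgeR adjusted p = 0.493). It was -0.12 ± 0.09 from the other 33 libraries (edgeR adjusted p = 0.331). DESeq2 and limma with voom gave adjusted p of 0.0683 and 0.115 for CAST and 0.485 and 0.497 for CAPN1 with all 40 libraries.

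**Figure D4:**
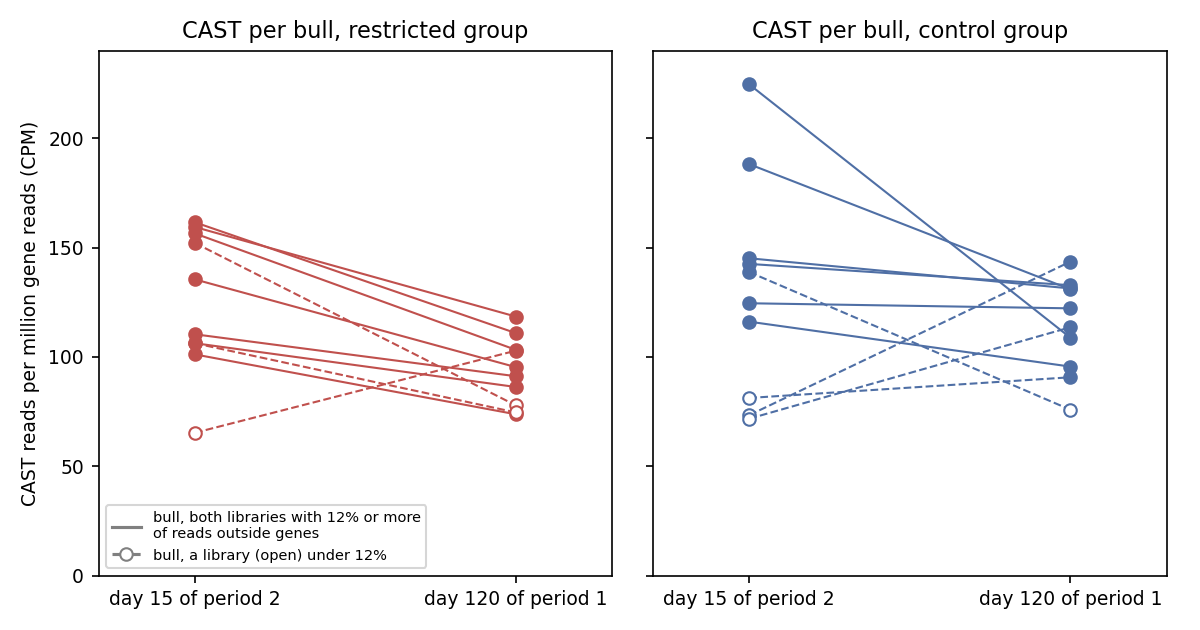
CAST in reads per 1000000 gene reads for each bull at day 15 of period 2 (left) and day 120 of period 1 (right), in the restricted group and the control group. Solid lines join libraries outside the set of 7 and all are higher in period 2. The rise is 0.28 to 0.60 log2 units in 7 restricted and 0.03 to 1.05 in 6 control bulls. Dashed lines hold a library (open point) with under 12% of reads outside genes, and every line lower in period 2 is dashed.

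Bulls were also compared with themselves over time. Over those 7 restricted bulls the log2 CPM of CAST in period 2 followed that in period 1 (Pearson's r = 0.93, exact permutation p = 0.000397, adjusted p = 0.00238; Spearman's rho = 0.96, exact permutation p = 0.00278, adjusted p = 0.0167). Leaving out the 2 bulls farthest from the median of period 1 gave r = 0.96. This was 1 of 6 such relations examined, and p-values were adjusted over the 6. Over all 10 restricted bulls r was 0.29 (permutation p = 0.423, adjusted p = 0.951; rho = 0.66, permutation p = 0.0432, adjusted p = 0.259), so the relation rests on leaving out 3 bulls with a library in the set. In the 6 control bulls with both libraries outside the set of 7, r was 0.16 for CAST (exact permutation p = 0.783, adjusted p = 0.783; Spearman's rho = 0.20, exact permutation p = 0.714, adjusted p = 0.783). A difference between these correlations was not tested. For CAPN1 r was 0.41 in restricted bulls (exact permutation p = 0.438, adjusted p = 0.526; rho = -0.14, adjusted p = 0.783) and 0.60 in control bulls (exact permutation p = 0.199, adjusted p = 0.397; rho = 0.31, adjusted p = 0.783). The ratio gave r = 0.78 in restricted bulls (exact permutation p = 0.0442, adjusted p = 0.133; rho = 0.71, adjusted p = 0.264), and 0.47 in control bulls (exact permutation p = 0.383, adjusted p = 0.526; rho = 0.49, adjusted p = 0.711).

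The CAPN1 to CAST ratio over the same step was 0.387 to 1.25 (median 0.516) in refed bulls of period 2 and 0.617 to 1.07 (median 0.716) in restricted bulls of period 1. 9 of 10 bulls had a lower ratio after feeding resumed, again all but bull 10. The mean log2 ratio was -0.81 ± 0.48 (SD, n = 10) in period 2 and -0.38 ± 0.28 in period 1, a difference of -0.43 ± 0.18 (SE), or 0.742-fold. The permutation test, which did not use the pairing of libraries within bulls, gave p = 0.0248 and an adjusted p of 0.124. The paired exact sign-flip test over the 10 bulls gave p = 0.0469 and an adjusted p of 0.188. With medians in place of means and no library left out, the difference was -0.47 (permutation test, adjusted p = 0.0179). Among the other 33 libraries the ratio was 0.387 to 0.678 in 9 refed and 0.617 to 0.866 in 8 restricted libraries, a difference of -0.45 ± 0.11. None of the 9 refed libraries lay above the median of the 8 restricted ones. Without restricted bull 10 in period 2 the difference was -0.56 ± 0.13 (exact permutation test, adjusted p = 0.00249), again without the highest ratio of its group.

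The fourth comparison followed control bulls over the same interval under constant feeding. CAST was at 71.8 to 224.6 CPM (median 131.7) in period 2 and at 75.9 to 143.6 CPM (median 117.9) in period 1, and 7 of 10 bulls were higher in period 2. Control bulls 7 and 4 reached 224.6 and 188.1 CPM in period 2, above every other library in CPM. On the authors' scale they were at 159.1 and 169.2, and restricted bull 6 of that period was at 169.4. The change was 0.14 ± 0.14 log2 units (SE; edgeR adjusted p = 0.515, unadjusted p = 0.292), where edgeR called 0.0392% of genes. From the other 33 libraries it was 0.29 ± 0.11 (edgeR adjusted p = 0.170, unadjusted p = 0.0113), with 0.696% of genes called. All 6 bulls with both libraries outside the set of 7 were higher in period 2. Bulls 2, 3 and 8, which were lower, each have their period 2 library in the set. CAPN1 was at 59.2 to 82.5 CPM in period 2 and 54.9 to 95.5 CPM in period 1, a change of 0.09 ± 0.11 (edgeR adjusted p = 0.627), or of 0.02 ± 0.09 from the other 33 (edgeR adjusted p = 0.927). Leaving out single libraries gave 0.051 (without bull 8 of period 2) to 0.20 (without bull 6 of period 1), none past the threshold. The ratio differed by -0.03 ± 0.26 log2 units (permutation test, p = 0.918, adjusted p = 0.918) with all libraries and by -0.28 ± 0.18 from the other 33.

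The last comparison tested whether the change over time differed between the feeding groups. The change in the restricted group minus that in the control group was 0.19 ± 0.19 log2 units (SE) for CAST (edgeR adjusted p = 0.596, unadjusted p = 0.333) and -0.21 ± 0.16 for CAPN1 (edgeR adjusted p = 0.454, unadjusted p = 0.193). In this test 6.37% of genes were called. From the other 33 libraries the difference was 0.04 ± 0.15 for CAST (edgeR adjusted p = 0.914) and -0.14 ± 0.13 for CAPN1 (edgeR adjusted p = 0.590), with 5.38% of genes called. Without control bull 6 of period 1 the CAPN1 difference was -0.33 (edgeR adjusted p = 0.156), and single libraries left out gave 0.11 to 0.23 for CAST. For the ratio it was -0.40 ± 0.31 over 20 bulls (permutation test, p = 0.208, adjusted p = 0.347) and -0.17 ± 0.17 over the 13 bulls with both libraries outside the set of 7. Leaving out single bulls gave -0.25 without control bull 2 (exact permutation test, adjusted p = 0.642) to -0.56 without restricted bull 10 (adjusted p = 0.102). A CAST or ratio response particular to refeeding was therefore not shown. The feeding comparisons and the time comparisons share their libraries, so their values are not independent of each other.

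**Figure D5:**
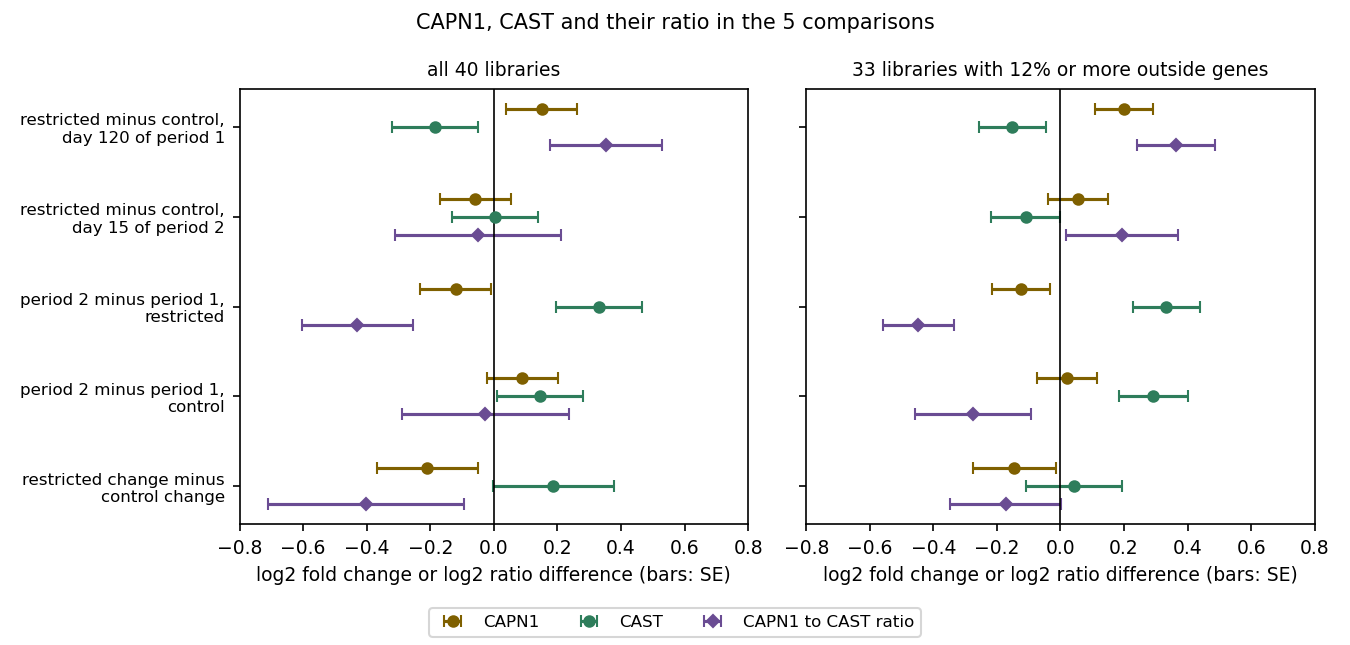
Log2 fold changes of CAPN1 and CAST (edgeR) and log2 differences of their count ratio in the 5 comparisons, with bars of 1 SE, for all 40 libraries (left) and for the 33 with 12% or more of reads outside genes (right). The CAST change of restricted bulls over time is 0.33 in both panels, and its SE is 0.14 on the left and 0.11 on the right.

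The authors' own normalised values, deposited per period, had the same directions as the edgeR fits within a period, although the CAST CPM means at day 15 were in the other order. CAST averaged 97.1 ± 15.8 (SD, n = 10) in restricted and 109.9 ± 17.1 in control bulls of period 1 on the authors' scale, reads per 1000000 of an effective library size. CAPN1 averaged 74.0 ± 9.92 in restricted and 66.4 ± 15.1 in control bulls there. In period 2 CAST averaged 125.6 ± 29.5 in refed and 125.2 ± 30.4 in control bulls, and CAPN1 70.1 ± 9.64 in refed and 73.2 ± 16.2 in control bulls. The periods were normalised separately, so these values were not compared between them.

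Genes that followed each of the pair were sought among the 7693 others with a mean of at least 5 CPM, as a description over libraries that share the set of 7. Across the 40 libraries the 5 genes closest to CAPN1 had Pearson's r of 0.85 to 0.87, led by ENSBTAG00000011580 at 0.87, which kept r = 0.85 in the other 33. The rest of these genes had r of 0.71 to 0.78 in the 33. The 5 closest to CAST had r of 0.79 to 0.82, led by ENSBTAG00000014534 at 0.82, with r = 0.71 in the other 33. The rest had r of 0.65 to 0.76 there. Both lists were picked by r over the 40 libraries, which include the set of 7. Over the 40, 19.7% of the 7693 genes had r above 0.5 with CAPN1 and 13.2% with CAST. In the other 33 these shares were 5.90% and 5.38%. The highest r with CAST there was 0.81, so the genes listed for CAST were not the closest outside the set. CAPN1 and CAST themselves had r = -0.17 across the other 33 libraries, and -0.02 there after removal of the group means. The set of 7 forms a cluster of its own in both genes, so no value is given for the pair over all 40.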

How the data were processed

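RNA was extracted from frozen muscle with Trizol and made into single-end TruSeq mRNA libraries, per the labels' protocols. CASAVA 1.4, TopHat, HTSeq, edgeR and the cattle assembly UMD3.1 are named, without settings, per the submitters' processing notes. The authors deposited whole-number read counts per gene for each of 40 libraries, and a normalised signal, counts per 1000000 of an effective library size. Reads outside genes, ambiguous reads and spike-in entries, all at 0, were left out of library sizes. Every pair of libraries within a group differed beyond counting noise (smallest chi-square per gene 24.4).

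The members, lists and tests were chosen with earlier results of these data known. edgeR 4.0.16 (quasi-likelihood F test, robust, TMM, filterByExpr with minimum count 10 and total 15) was fitted to all 40 libraries with 4 group means; 12753 genes were tested with Benjamini-Hochberg adjustment, and a gene was called at an adjusted p under 0.05. This main fit had no term for the bull. Standard errors were derived from the F statistics. The log2 count ratio was tested over libraries by two-sided permutation (100000 resamples, or exact where a group had under 10 values; SciPy 1.17.1), adjusted over 5 comparisons. Scripts were tested on simulated data. DESeq2 1.42.0, limma 3.58.1 and other alternatives are given at the end. Lists of 138 symbols for the calpain system, other proteolysis and cell types could not be joined to the identifiers, since the RefSeq table paired 0 genes with Ensembl identifiers, and were not analysed. The named genes were the pair and, for each, the 5 most alike over the 40 libraries.

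Title numbers were taken to mark the same bull at both times: with a term for the 7 libraries, same-numbered libraries deviated together across genes at 0.19 to 0.38 in the restricted and 0.11 to 0.43 in the control group, with all 10 pairs of each above 0.1, against medians of -0.03 and -0.02 for other numbers. Without the term 7 and 8 pairs were, and the lowest pairs were at -0.23 and -0.14. With the term, the own number was the closest for all 10 restricted libraries of each period. In control libraries it was so for 8 of period 2 and 5 of period 1. Without the term it was so for 7 restricted libraries of each period, and for 2 control libraries of period 2 and 4 of period 1. By expression the pairing is thus less clear in the control group. The same numbers in both feeding groups are different bulls. The labels do not state the pairing outright. The second number of the library codes differed by the same step in every same-numbered pair of both feeding groups. For period 1 and period 2 it was 7 and 37 in control bull 1, and 1 and 31 in restricted bull 1.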

Additional observations from a re-analysis of the deposited data

Results flagged for a closer look

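Of 12 sets of 10 values (CAPN1, CAST and their ratio in 4 groups), 3 had 1 library farther from its nearest neighbour than Dixon's 95% critical value allows; chance flags about 1 in 20. Control bull 6 in period 1 had the highest CAPN1 of its group at 95.5 CPM, with the next control library at 76.4 CPM. The same library had the highest ratio of CAPN1 to CAST there, 1.26, with the next at 0.765. Restricted bull 10 in period 2 had a ratio of 1.25, with the next refed bull at 0.678. Both libraries belong to the 7 with 10.0% to 11.2% of reads outside genes, at 10.5% and 10.0%. The part of that share in these values was not tested.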

How the results depend on the processing

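For the feeding comparison at day 15 the direction of CAST turned with total counts (-0.059), a term for the 7 libraries (-0.094), that term with the replicate block (-0.10), reads outside genes as a covariate (-0.0070), a factor from the first number of the library code (-0.060) and the other 33 libraries (-0.11), and that of CAPN1 with the term (0.040), term and block (0.063), code number (0.030) and 33 libraries (0.056). The ratio there was 0.19 from the 33, 0.16 with the term, 0.0074 with the covariate and 0.098 with the code number, and over time in control bulls it was 0.064 with the code number. CAPN1 over time in control bulls was -0.0014 with the term, -0.0037 with term and block, and -0.039 with the covariate. None of those with a test was past the threshold; the ratio fits with a term, covariate or code number had none. CAST over time in restricted bulls passed it with the term (0.26), term and block (0.25), covariate (0.31) and 33 libraries (0.33). It did not with the code number (0.31). From the 33, the ratio had adjusted permutation p under 0.05 in restriction (0.36) and over time in restricted bulls (-0.45). The 33 lack the 7 highest ratios, so those p are not read as calls. With medians in place of means and no library left out, the ratio over time in restricted bulls was -0.47 (permutation test, adjusted p = 0.0179). Leaving out single libraries gave ranges of -0.054 to 0.074 for CAST at day 15, 0.27 to 0.38 for CAST over time in restricted bulls, 0.30 to 0.47 for the ratio in restriction, -0.18 to 0.055 at day 15, -0.56 to -0.37 over time in restricted and -0.13 to 0.092 in control bulls. In restriction CAPN1 was 0.058 with total counts, 0.061 with the covariate and 0.25 with the code number, CAST -0.29, -0.059 and -0.30, and the ratio 0.13 with the covariate and 0.55 with the code number. The difference of changes over time was -0.078 for CAPN1, 0.026 for CAST and -0.094 for the ratio with the term. Total counts gave -0.035 for CAPN1 over time in restricted bulls, and leaving out its bull 10 gave -0.19. The code number gave 0.077 for CAST over time in control bulls. The causes were not tested.

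The replicate block without the term changed no call: CAST over time in restricted bulls was 0.31 (edgeR adjusted p = 0.0643) and the ratio -0.43 (exact sign-flip test over 10 bulls, p = 0.0469, adjusted p = 0.188). Numbers shared across feeding groups mark different bulls. The number of genes called over time in control bulls was 118 by DESeq2, against 5 by edgeR. With the replicate block, edgeR called 661 genes in restriction, against 1249 without it, and 78 at day 15, against 918. The covariate, the authors' effective library sizes, the term and code number for the ratio, and relations over all 10 bulls were added after seeing the data. Counts of called list members were not run, as symbols could not be joined.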

Other observations

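Outside the set of 7 libraries, the ratio of CAPN1 to CAST was lower where more reads fell outside genes in control bulls of period 1 (9 libraries; Pearson's r = -0.64, exact permutation p = 0.0504, adjusted p = 0.202; Spearman's rho = -0.82, exact permutation p = 0.0108, adjusted p = 0.0431). Leaving out the 2 libraries farthest from the median share gave r = -0.62. In the other 3 groups r was -0.10 in refed bulls, -0.66 in control bulls of period 2 and -0.47 in restricted bulls, with exact permutation p of 0.810, 0.111 and 0.246, and adjusted p over the 4 relations of 0.810, 0.222 and 0.328. Spearman's rho was -0.27, -0.39 and -0.38 there, each with an adjusted exact permutation p of 0.493. CAPN1 and CAST showed no relation past the threshold within any group outside the set, with r of 0.34 in refed bulls, -0.19 in control bulls of period 2, 0.56 in restricted bulls and -0.33 in control bulls of period 1 (exact permutation p = 0.371, 0.671, 0.145 and 0.374, and adjusted p of 0.499, 0.671, 0.499 and 0.499). Spearman's rho was 0.32, -0.07, 0.62 and -0.20 in the same order of groups, with adjusted exact permutation p of 0.818, 0.906, 0.460 and 0.818.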
